A study of Caenorhabditis elegans with 46 samples.

Results

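The 9 genes described here build long fatty acids in Caenorhabditis elegans: pod-2, fasn-1, sbp-1, elo-1, elo-2, elo-3, elo-5, elo-6 and let-767. They were taken by name out of the 17118 genes with an unambiguous probe set on the Affymetrix array, and each was represented by its brightest probe set. RNA of whole worms was hybridised to 46 arrays in 2 sets. The time course used only the wild type, N2, on 22 arrays with 2 for each group. Its worms had been fed up to day 2 of adulthood and were then fasted for 3, 6, 9, 12, 18, 24, 36 or 48 h, or kept with food and sampled at 0, 24 and 48 h. The mutant set held 24 arrays of day 4 adults, 3 per group: kgb-1 mutants (a JNK-type kinase), jun-1 mutants (the worm's c-Jun, an AP-1 transcription factor), daf-16 mutants (the FOXO factor of insulin signalling) and N2, each fasted and fed. All strains had the N2 background. The labels give neither the alleles of the mutants nor the length of the fast in that set. The series' title names JNK and AP-1 in the response of lifespan to intermittent fasting.

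Fatty acid synthesis starts with acetyl-CoA carboxylase, which makes malonyl-CoA, and fatty acid synthase, which strings malonyl units into a saturated chain. Elongases of the ELO family then add further units, and a ketoacyl-CoA reductase is needed in each round. In the worm, elo-5 and elo-6 lengthen the monomethyl branched-chain fatty acids, which are built on starters from the breakdown of branched-chain amino acids, elo-2 lengthens palmitate and elo-1 serves the polyunsaturated acids. SBP-1, the worm's SREBP, is the transcription factor best known for driving fat synthesis genes in the intestine.

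Levels are given as the intensities the authors deposited, on a linear scale. Fold changes are log2 differences of log2(intensity + 16) after quantile normalization of the arrays within a set, so they understate the change of dim probe sets. A gene is called at an adjusted p under 0.05 from limma, adjusted by the Benjamini-Hochberg method over all 22548 probe sets of a comparison. The levels of different genes cannot be set against each other on an array.

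The arrays' median intensities spanned 60.1 to 84.0 for the time course (81.8 to 84.0 in 48 h fasted worms, against 64.5 to 66.9 in fed ones) and 60.2 to 85.4 for the mutant set, with replicate arrays correlated at 0.929 or above. The number of arrays limits the precision. The check genes followed the labels: acs-2, an acyl-CoA synthetase switched on by starvation, was higher in fasted worms in all 8 time course comparisons and in all 4 genotypes, by at least 1.68 on the log2 scale. The jun-1 probe set read 20.5 ± 6.01 in fasted and 19.2 ± 3.85 in fed jun-1 worms, against 559 ± 67.3 in fasted and 705 ± 99.1 in fed N2 worms (SD, n = 3 each). The daf-16 probe set read 367 ± 35.8 and 413 ± 96.1 in fasted and fed daf-16 worms, against 624 ± 82.2 and 559 ± 36.6 in N2, and the kgb-1 probe set, at 212 ± 12.5 and 187 ± 33.3 in fasted and fed kgb-1 worms against 184 ± 34.8 and 174 ± 17.7 in N2, did not check that label. In whole worms, fewer cells of a type and less RNA per cell cannot be told apart. In the comparison of 48 h fasted with fed worms of that age, 16% of all probe sets were called higher and 14.1% lower. The summed level of 20 germline markers was 31730 to 35740 in worms fasted for 48 h, against 49500 to 53530 in fed worms of that age, and 13 of the 20 were called lower there. The summed level of 15 intestine markers was 17150 to 18640 in the 48 h fasted worms, against 23960 to 25370 in the fed ones, with 3 called higher and 6 lower, and no marker of either list averaged under 20. The summed level of 11 hypodermis markers was 3120 to 5108 in the 48 h fasted worms, against 9869 to 10280 in the fed ones (1 called higher, 5 lower). That of 14 neuron markers was 5812 to 6305, against 3872 to 4282 (4 higher), and that of 12 body wall muscle markers 11020 to 11360, against 10160 to 10250 (3 higher, 1 lower). The part of these shifts in the results below was not tested.

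The genes of branched-chain elongation were lower within the first hours of fasting than in fed worms at 0 h, and did not stay low. At 3 h of fasting, 2 of the 9 genes were called, both lower, where 1.12% of all probe sets were called and 0.674% were called lower. They were elo-5 and elo-6, which make monomethyl branched-chain fatty acids and lie close together on the chromosome, with 21 annotated genes between them, of which 3 code for proteins.

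The elo-5 probe set (191276_s_at) read 1301 and 1522 after 3 h of fasting, against 2351 and 2448 in fed worms at 0 h. The arrays of the groups were far apart, and the fall was 0.82 ± 0.15 on the log2 scale (SE, adjusted p = 0.00706, limma). Later it read 1852 and 2030 (6 h), 1623 and 1640 (9 h), 1794 and 1315 (12 h), then 2071 and 1759 (18 h). Every one of these 8 arrays lay below both fed arrays at 0 h. The change was called at 9 h (-0.54 ± 0.15, adjusted p = 0.0294, limma) and at 12 h (-0.64 ± 0.15, adjusted p = 0.00746, limma), but not at 6 h (-0.31, adjusted p = 0.562) or 18 h (-0.37, adjusted p = 0.0628; -0.49 and 0.0435 without fasted replicate 1). At 24 h it read 2048 and 1884 in fasted worms, against 2686 and 2762 in fed worms of the same age, and was again called lower (-0.43 ± 0.15, adjusted p = 0.0356, limma).

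In later fasted worms elo-5 was no longer called lower. It read 3214 and 2453 after 36 h of fasting, and 3063 and 3155 after 48 h, against 2762 and 2958 in fed worms at 48 h. The 48 h difference was 0.08 ± 0.15 and was not called (adjusted p = 0.734, limma). The fall at 3 h ran from -0.97 to -0.68 with 1 array left out and lost the call without either fed array (adjusted p 0.0807 and 0.0574) or without fasted replicate 1 (0.133, limma). The calls at 9 and 24 h were lost without any 1 of their 4 arrays (adjusted p 0.103 to 0.158), the call at 12 h without fasted replicate 2 (0.122), and all 4 when both sets were fitted together (0.11 to 0.31, limma).

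The elo-6 probe set (173725_s_at) read 1253 and 1304 after 3 h of fasting, against 2130 and 2586 in fed worms at 0 h. Both fasted arrays were well below both fed ones, and the fall was 0.93 ± 0.19 on the log2 scale (adjusted p = 0.0174, limma). It then read 1775 and 2156 (6 h), 1478 and 1754 (9 h), 1913 and 2094 (12 h), and 2222 and 2084 (18 h), and none of these times was called. At 24 h it read 2373 and 3446 in fasted worms, against 2136 and 2279 in fed worms, and after 36 h of fasting 2743 and 3202. At 48 h it read 3091 and 3468, against 1979 and 2646 in the fed worms of that age. At both of these ages the fasted arrays were above the fed ones, yet the differences of 0.41 ± 0.19 (adjusted p = 0.11) and 0.48 ± 0.19 (adjusted p = 0.0614, limma) were not called. With the replicate number as a block both differences were called (adjusted p = 0.0188 at 24 h and 0.00666 at 48 h, limma). The 24 h difference rested on which fasted array was kept: it was 0.75 and called without fasted replicate 1 (adjusted p = 0.00741) and 0.07 without fasted replicate 2 (0.825, limma). The 48 h difference was called without fed replicate 2 (0.68, adjusted p = 0.0337, limma). The call at 3 h was lost without any 1 of its 4 arrays (adjusted p 0.0556 to 0.201) and in the fit of both sets together (0.543, limma), with the fall at 0.80 or more throughout.

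The elo-2 probe set (189318_at), for the elongase of straight-chain palmitate, read 228 and 309 after 3 h of fasting, against 465 and 497 in fed worms at 0 h. The arrays did not overlap, but the difference of -0.75 ± 0.22 was not called (adjusted p = 0.176, limma). It was called with the replicate number as a block (adjusted p = 0.0355, limma). Its next values were 291 and 449 (6 h), 565 and 634 (9 h), 580 and 636 (12 h) and 738 and 671 (18 h). From 9 h on, every fasted array was above both fed arrays at 0 h. At 36 h it read 1009 and 726 and was called higher, by 0.86 ± 0.22 (adjusted p = 0.00483, limma), a call lost without the brighter of these arrays, replicate 1 (0.63, adjusted p = 0.0782, limma).

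At 48 h elo-2 read 823 and 841 in fasted worms, against 604 and 895 in fed worms of that age. The groups overlapped, and the difference was 0.21 ± 0.22 (adjusted p = 0.528, limma). The fed worms themselves differed from those at 0 h by 0.58 ± 0.22, which was not called (adjusted p = 0.3, limma). The rise at 36 h has no fed group of its own age, so fasting and age cannot be told apart there. The same holds for the 36 h calls of let-767, pod-2 and elo-3 below. The earlier calls of elo-5 and elo-6 against fed worms at 0 h also lacked a fed group of their own hour. The part of age or elapsed time in those early calls was not tested.

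The let-767 probe set (187384_s_at), for the ketoacyl-CoA reductase, is the last of these elongation genes. It read 1196 and 1232 after 3 h of fasting, against 1467 and 1503 in fed worms at 0 h, a difference of -0.33 ± 0.12 that was not called (adjusted p = 0.416, limma). It read 1236 and 1518 (6 h), 1470 and 1738 (9 h), 1630 and 1701 (12 h), 1784 and 1764 (18 h), and 1805 and 1883 (24 h). Fed worms read 1546 and 1479 (24 h) and 1465 and 1567 (48 h). From 12 h on every fasted array was thus above every fed array of the time course as deposited. After quantile normalization this held only from 18 h on. Fasted 12 h replicate 1 was then at 10.65 (log2), below fed 24 h replicate 1 at 10.69. Against fed worms of the same age, let-767 was higher by 0.32 at 24 h, without a call (adjusted p = 0.0525, limma). It was called there under 3 of 9 alternative settings, with differences from 0.09 to 0.33. At 36 h it read 2111 and 2048 and was called higher (0.47 ± 0.12, adjusted p = 0.00459, limma), with each array left out as well. At 48 h it read 2008 and 2162 and was again higher than in fed worms of the same age (0.40 ± 0.12, adjusted p = 0.0183, limma). That call was lost without fed replicate 1 (adjusted p = 0.123) or fasted replicate 2 (0.113). Centring arrays on their median in place of quantile normalization also ended both calls (0.19, adjusted p = 0.132 at 36 h and 0.18, adjusted p = 0.176 at 48 h, limma); it put the median of all probe sets at -0.27 and -0.23 in these comparisons, and relative to that median let-767 was higher by 0.47 and 0.41.

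**Figure D1:**
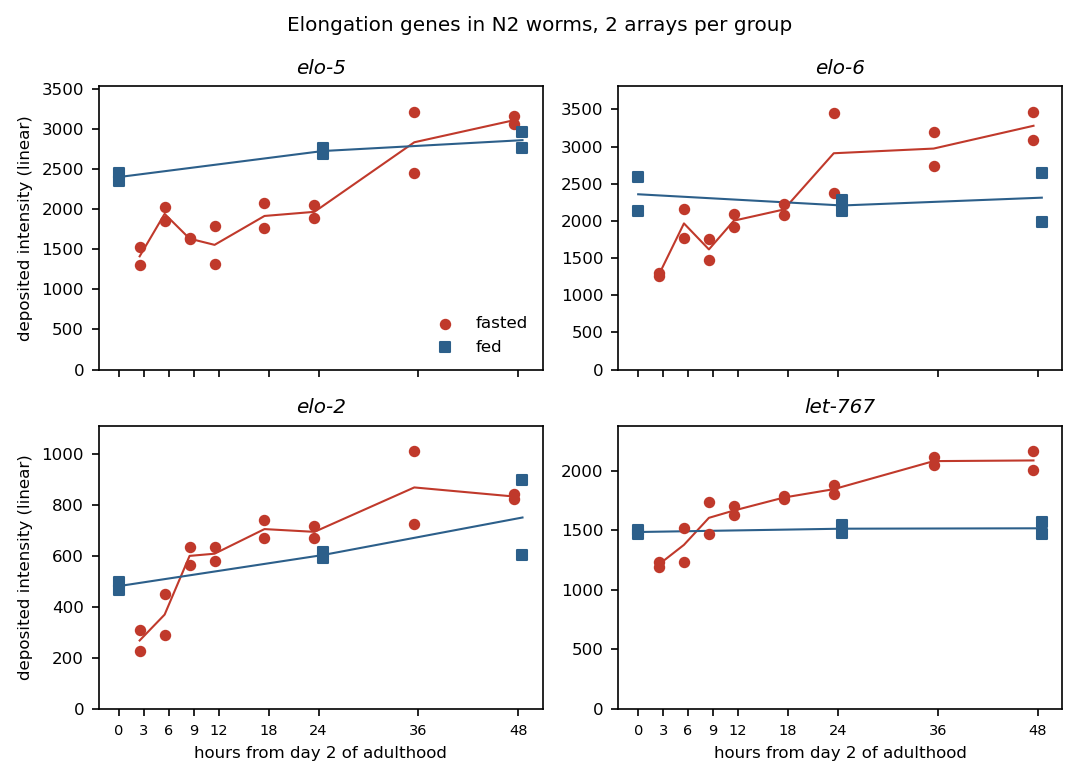
Deposited linear intensity of elo-5, elo-6, elo-2 and let-767 (vertical axes, from 0) in N2 worms by hours from day 2 of adulthood, fasted worms as red circles and fed worms as blue squares, 1 point per array and lines through the means of 2 arrays. The lowest array of each panel is one fasted for 3 h (1301, 1253, 228 and 1196). At these deposited intensities, before normalization, the fasted arrays of let-767 lie above all fed arrays from 12 h on.

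The course from early to late fasting was also compared directly, a comparison added after these values were seen. Between worms fasted for 48 h and worms fasted for 3 h, 6 of the 9 genes were called, 5 higher and 1 lower, where 33.8% of all probe sets were called, 17.4% higher and 16.4% lower. The higher genes were elo-2 (1.54 ± 0.22 on the log2 scale), elo-6 (1.36 ± 0.19), elo-5 (1.14 ± 0.15), let-767 (0.77 ± 0.12) and pod-2 (0.68 ± 0.18), with adjusted p between 2.51e-05 for elo-5 and 0.00858 for pod-2 (limma). The lower one was elo-3 (-0.87 ± 0.17, adjusted p = 0.000716), whose call was lost in the fit of both sets together (adjusted p = 0.195, limma). Of these 6 calls only that of pod-2 depended on 1 array: it was lost without fasted 3 h replicate 1 (adjusted p = 0.0869) or fasted 48 h replicate 2 (0.122, limma). The worms also differed by 2 days of age. The 3 h group was the lowest of the 11 time course groups for elo-2, elo-5, elo-6 and let-767, and the highest for elo-3. It was chosen with these values known. Neither the calls nor their stability with an array left out is therefore independent support, and the adjusted p values are not those of a planned test.

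The entry enzymes of synthesis and their regulator were called only at 36 or 48 h of fasting. The pod-2 probe set (190496_s_at), for acetyl-CoA carboxylase, was not called before 36 h, with 236 and 281 after 3 h of fasting, against 246 and 242 in fed worms at 0 h. It read 402 and 366 after 36 h, above every fed array of the time course, and the rise of 0.49 ± 0.18 was called (adjusted p = 0.0422, limma). It was not called when any 1 of the 4 arrays was left out (0.41 to 0.58, adjusted p 0.0737 to 0.198), in the fit of both sets together (adjusted p = 0.114) or with median centring (0.33, adjusted p = 0.124, limma). At 48 h it read 397 and 507, against 283 and 343 in fed worms of the same age. These arrays did not overlap, and the difference of 0.46 ± 0.18 was not called (adjusted p = 0.0693, and 0.0397 with the replicate block, limma). With 1 array left out the difference ran from 0.26 to 0.67, the largest without fasted replicate 1.

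The fasn-1 probe set (174796_at), for fatty acid synthase, read 634 and 717 after 48 h of fasting, against 895 and 1013 in fed worms of the same age. The difference of -0.44 ± 0.15 on the log2 scale was called (adjusted p = 0.0345, limma). It was not a fall from the level at the start of the fast. After normalization the mean was 9.44 (log2) in the 48 h fasted worms, 9.29 in fed worms at 0 h and 9.88 in those at 48 h. Fed worms read 639 and 612 at 0 h, then 750 and 893 at 24 h, and their difference between 48 and 0 h, 0.59 ± 0.15, was not called (adjusted p = 0.0616, limma). The call was lost without any 1 of the 4 arrays (adjusted p 0.0513 to 0.219) and in the fit of both sets together (0.104, limma). A second, dimmer probe set of fasn-1 (189768_at) had the same difference at 48 h, -0.44 ± 0.23, with no call (adjusted p = 0.162, limma), and read 380 and 341 in fasted worms, against 497 and 457 in fed worms. At 24 h the brighter and the dimmer probe set differed by -0.22 ± 0.15 and -0.60 ± 0.23, neither called (adjusted p = 0.297 and 0.0546, limma).

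The sbp-1 probe set (192735_s_at) read 262 and 335 after 48 h of fasting, against 150 and 173 in fed worms of the same age. Both fasted arrays were well above the fed ones, and the rise was 0.64 ± 0.18 (adjusted p = 0.0154, limma). Up to 24 h its values stayed between 149 and 251 in fasted worms, with no call. The call at 48 h was lost without fed replicate 1 (0.57, adjusted p = 0.105) or fasted replicate 2 (0.42, adjusted p = 0.184, limma).

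The remaining elongases had 1 call between them. The elo-1 probe set (191269_at), for the elongase of polyunsaturated acids, read 2384 to 4166 over all fasted arrays and 2994 to 3162 over the 6 fed arrays, and no time was called. The elo-3 probe set (187255_at), for a further ELO family member, was dim, at 61.5 to 221 over all arrays. It read 68.0 and 73.7 after 36 h of fasting, against 75.3 and 94.2 in fed worms at 0 h. The groups lay just apart, and the call of a fall by 0.51 ± 0.17 (adjusted p = 0.0226, limma) held only after scaling: on the values as deposited the difference was -0.21 (adjusted p = 0.405). It was also lost without fed replicate 2 (adjusted p = 0.155), fasted replicate 1 (0.0985) or fasted replicate 2 (0.0731), and in the fit of both sets together (0.467, limma).

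**Figure D2:**
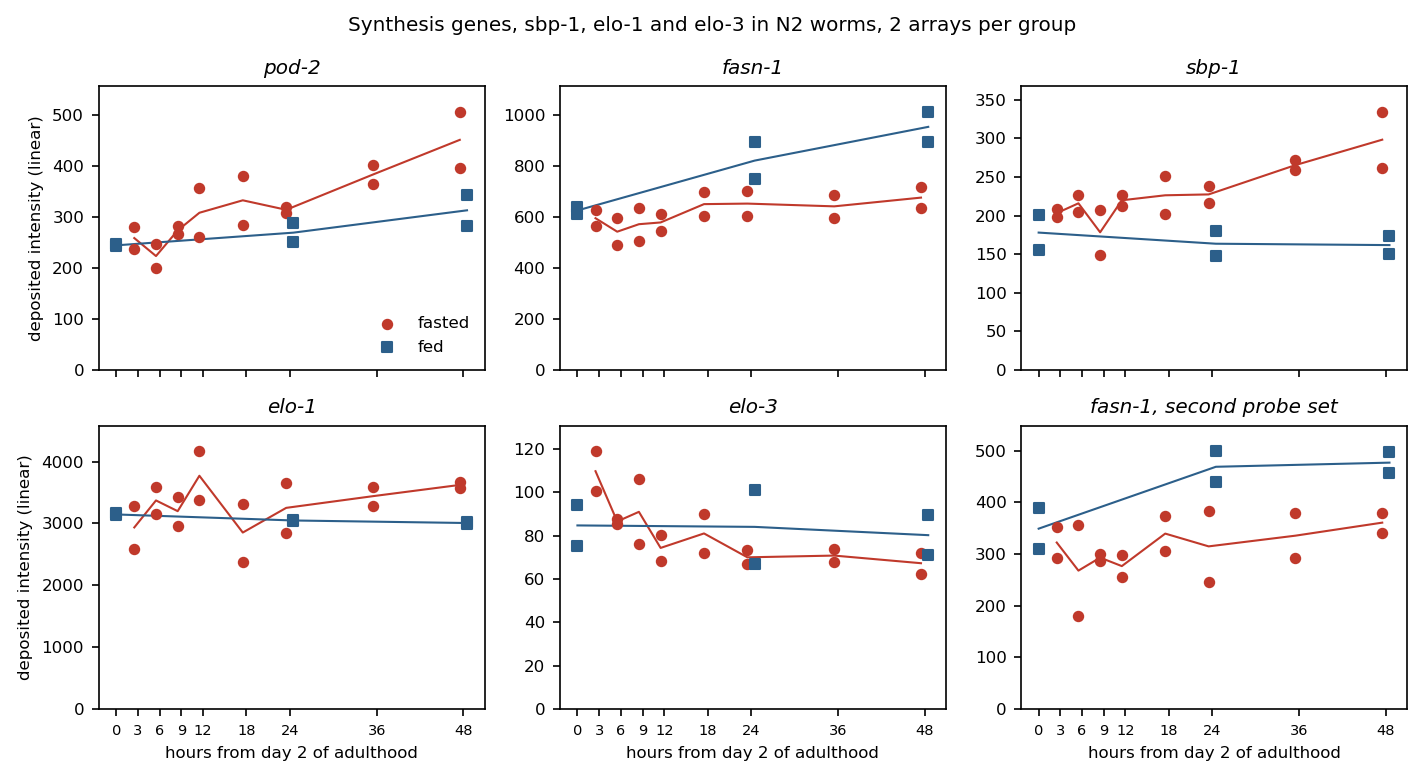
Deposited linear intensity of pod-2, fasn-1, sbp-1, elo-1, elo-3 and the second fasn-1 probe set (vertical axes, from 0) in N2 worms by hours from day 2 of adulthood, fasted worms as red circles and fed worms as blue squares, 1 point per array and lines through the means of 2 arrays. At 48 h the fasted arrays of sbp-1 (262 and 335) lie above the fed ones (150 and 173), and those of fasn-1 (634 and 717) below them (895 and 1013).

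In all, 12 of 72 values of the 9 genes were called over the 8 fasting comparisons of the time course, 5 higher and 7 lower, and 25 had an unadjusted p under 0.05. The comparisons at 3, 6, 9, 12, 18 and 36 h share the fed arrays at 0 h. At 36 h 4 genes were called, 3 higher and 1 lower, where 40.3% of all probe sets were (19.8% higher, 20.5% lower). At 48 h 3 genes were, 2 higher and 1 lower, where 30.1% of probe sets were (16% higher, 14.1% lower), so the shares called in late fasting were near the background. The single calls at 9, 12 and 24 h stood against 9.65%, 16.1% and 32.2% of all probe sets, or 3.25%, 6.17% and 15.7% called lower. No gene was called at 6 h (2.2% of probe sets, none at an unadjusted p under 0.05) or 18 h (36.6%, 3 at an unadjusted p under 0.05). Fed worms had no called gene at 24 h against 0 h (0.457% of probe sets, 1 gene at an unadjusted p under 0.05) or at 48 h (1.78%, 2 genes).

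In the mutant set, let-767 was the 1 gene called in N2 worms, where 5.57% of all probe sets were called and 3.4% were called higher. The let-767 probe set read 1758, 2331 and 2172 in fasted N2 worms, against 1396, 1356 and 1351 in fed N2 worms. All fasted arrays were above all fed arrays, by 0.49 ± 0.12 (adjusted p = 0.0179, limma). The call was lost in 5 of the 6 fits that left out an array (adjusted p 0.0534 to 0.108, all but that without fasted replicate 1).

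The elo-6 probe set read 2238, 3849 and 3118 in fasted N2 worms, against 1442, 1370 and 1424 in fed N2 worms. The groups were far apart, but the fasted arrays also differed widely among themselves, and the difference of 0.98 ± 0.30 was not called (adjusted p = 0.0601, limma). With the replicate number as a block, since same-numbered arrays of this set were paired, it was called (adjusted p = 0.00265, limma). The elo-1 probe set read 3280, 3414 and 3624 in fasted N2 worms, against 2501, 2371 and 2313 in fed ones, again without overlap. Its difference of 0.47 ± 0.14 missed the threshold (adjusted p = 0.0505) and passed it with the block (adjusted p = 0.00988, limma).

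The remaining genes had no call in N2 with or without the block. The elo-5 probe set read 2056, 2710 and 2816 in fasted N2 worms, against 2106, 2385 and 2908 in fed ones, a difference of -0.01 with a 95% interval of -0.46 to 0.44. The fasn-1 probe set read 654, 592 and 514 in fasted N2 worms, against 850, 744 and 639 in fed ones. It was lower in each of the 3 replicate pairs, and its difference of -0.42 ± 0.18 was not called (adjusted p = 0.252, limma). The second probe set of fasn-1 differed by -0.67 ± 0.23, also without a call (adjusted p = 0.0967, limma). The sbp-1 probe set read 294, 384 and 360 in fasted N2 worms, against 264, 257 and 279 in fed ones (0.25 ± 0.20, adjusted p = 0.635, limma).

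In jun-1 worms elo-5 fell on fasting. It read 978, 1003 and 905 in fasted jun-1 worms, against 1402, 2127 and 2430 in fed jun-1 worms. The fasted arrays were close together and below all others of the mutant set, and the fall was 1.05 ± 0.22 on the log2 scale (adjusted p = 0.00583; 6.29e-05 with the replicate block, limma). It was the only called gene in jun-1 worms, where 2.95% of probe sets were called and 2.13% were called lower. Without fed replicate 3 the fall was 0.84 and the call was lost (adjusted p = 0.0647, limma). The elo-2 probe set read 282, 255 and 256 in fasted jun-1 worms, against 543, 421 and 359 in fed ones. These did not overlap, and the difference of -0.71 ± 0.27 was called only with the block (adjusted p = 0.221 without it and 0.044 with it, limma).

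The other mutants had no called gene. In kgb-1 worms (1% of probe sets called) the differences ran from -0.26 for elo-2 to 0.38 for elo-6, with none at an unadjusted p under 0.05. The let-767 probe set read 1825, 2051 and 1890 in fasted kgb-1 worms, against 1554, 1712 and 1572 in fed ones. These arrays did not overlap, and the difference was 0.24 ± 0.12 (adjusted p = 0.965, limma). In daf-16 worms (4.68% of probe sets called, 2 of the 9 genes at an unadjusted p under 0.05) the elo-1 probe set read 3221, 2771 and 3279 when fasted, against 2754, 2065 and 1753 when fed. The difference of 0.44 ± 0.14 missed the threshold (adjusted p = 0.081) and passed it with the replicate block (0.0186), in the fit of both sets together, on unscaled values (0.0167) and without fed replicate 1 (0.64, adjusted p = 0.00163, limma).

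Whether the fasting response of a mutant differed from that of N2 was tested as an interaction, and no gene was called in kgb-1, jun-1 or daf-16 (0.031%, 0.177% and 0.111% of probe sets called, with 0, 3 and 1 of the 9 genes at an unadjusted p under 0.05, limma). These 3 tests share the 6 N2 arrays. For elo-5 the jun-1 response minus the N2 response was -1.04 ± 0.31, with a 95% interval of -1.68 to -0.40 (adjusted p = 0.405; 0.0255 with the replicate block, limma). For elo-6 it was -1.07 ± 0.42, with a 95% interval of -1.95 to -0.20 (adjusted p = 0.889, limma).

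Fasted mutants were also set against fasted N2 worms directly. In fasted jun-1 worms 3 of the 9 genes were called, all lower, where 3.67% of probe sets were called and 2.91% were called lower. The elo-5 probe set, at the values above, differed by -1.29 ± 0.22 on the log2 scale (adjusted p = 0.000777, limma), and stayed called with any 1 array left out. The elo-6 probe set read 908, 1140 and 1164 in fasted jun-1 worms, against 2238, 3849 and 3118 in fasted N2 worms, a difference of -1.42 ± 0.30 (adjusted p = 0.00655, limma). All 3 mutant arrays were below all 3 N2 arrays, and the call was lost only without N2 fasted replicate 2 (-1.24, adjusted p = 0.0507). The let-767 probe set read 1354, 1486 and 1480 in fasted jun-1 worms, against 1758, 2331 and 2172 in fasted N2 worms (-0.46 ± 0.12, adjusted p = 0.0379, limma). That call was lost in 5 of the 6 fits that left out an array (adjusted p 0.0688 to 0.204, all but that without N2 fasted replicate 1) and with median centring (-0.32, adjusted p = 0.131, limma).

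With the replicate block 2 further genes were lower in fasted jun-1 than in fasted N2 worms. The pod-2 probe set read 351, 395 and 262 in fasted jun-1 worms, against 585, 553 and 616 in fasted N2 worms (-0.67 ± 0.21, adjusted p = 0.0858, and 0.0344 with the block, limma). The elo-2 probe set, at the values above in jun-1 worms, read 433, 696 and 561 in fasted N2 worms (-0.87 ± 0.27, adjusted p = 0.0853, 0.0121 with the block and 0.0259 without N2 fasted replicate 1, limma). Neither overlapped between the genotypes. The summed level of the 15 intestine markers was 5433 to 6593 in fasted jun-1 worms, against 9612 to 11750 in fasted N2 worms and 13820 to 15570 in fed jun-1 worms. Of these 15 markers 3 were called lower in fasted jun-1 than in fasted N2 worms (2.91% of all probe sets) and 7 in fasted than in fed jun-1 worms (2.13% of all probe sets), with none called higher. The summed body wall muscle markers were 3897 to 6479 in fasted jun-1 worms, against 5843 to 13350 in fasted N2 worms, and the hypodermis markers 2215 to 7319, against 5204 to 10890. Their part in the results was not tested.

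In fasted daf-16 worms 2 of the 9 genes were called, both lower than in fasted N2 worms, where 2.1% of probe sets were called and 1.79% were called lower. The pod-2 probe set read 316, 303 and 260 in fasted daf-16 worms, against 585, 553 and 616 in fasted N2 worms. The groups were far apart (-0.82 ± 0.21, adjusted p = 0.0358, limma), yet the call was lost without any 1 of the 6 arrays (adjusted p 0.0506 to 0.202, at -0.89 to -0.75). The let-767 probe set read 1354, 1496 and 1440 in fasted daf-16 worms (-0.48 ± 0.12, adjusted p = 0.0433, limma). That call was lost in 5 of the 6 fits that left out an array (adjusted p 0.063 to 0.28, all but that without N2 fasted replicate 1) and with median centring (-0.43, adjusted p = 0.112, limma).

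The elo-6 probe set read 1337, 1223 and 1473 in fasted daf-16 worms, against 2238, 3849 and 3118 in fasted N2 worms (-1.09 ± 0.30, adjusted p = 0.0639, 0.002 with the block and 0.0415 without N2 fasted replicate 1, limma). For elo-5, at 1726, 1711 and 1570 in fasted daf-16 worms, the difference of -0.53 ± 0.22 was called only with the block (adjusted p = 0.366, and 0.0477 with it, limma). No gene was called in fasted kgb-1 worms (1.39% of probe sets, 3 genes at an unadjusted p under 0.05, limma), where the largest difference was elo-6 at -0.66 ± 0.30 (adjusted p = 0.543). These 3 comparisons share the fasted N2 arrays.

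Fed mutants showed no called difference from fed N2 worms. The called share of probe sets was 1.9% for kgb-1, 1.36% for jun-1 and 0.435% for daf-16, and 2, 0 and 2 of the 9 genes had an unadjusted p under 0.05 (limma). The fasn-1 probe set read 572, 565 and 443 in fed kgb-1 worms, against 850, 744 and 639 in fed N2 worms. The arrays did not overlap, and the difference of -0.63 ± 0.18 missed the threshold (adjusted p = 0.0918) and passed it with the replicate block (0.026) and in the fit of both sets together (0.0164, limma). The second probe set of fasn-1 differed by -0.47 ± 0.23 there and was not called (adjusted p = 0.464, limma). The elo-6 probe set read 728, 1093 and 865 in fed daf-16 worms, against 1442, 1370 and 1424 in fed N2 worms (-0.66 ± 0.30, adjusted p = 0.803, limma). For elo-3, replicate 2 was the highest of the 3 arrays in every one of the 8 groups, between 116 and 221, so its spread in the mutant set followed the replicate number.

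**Figure D3:**
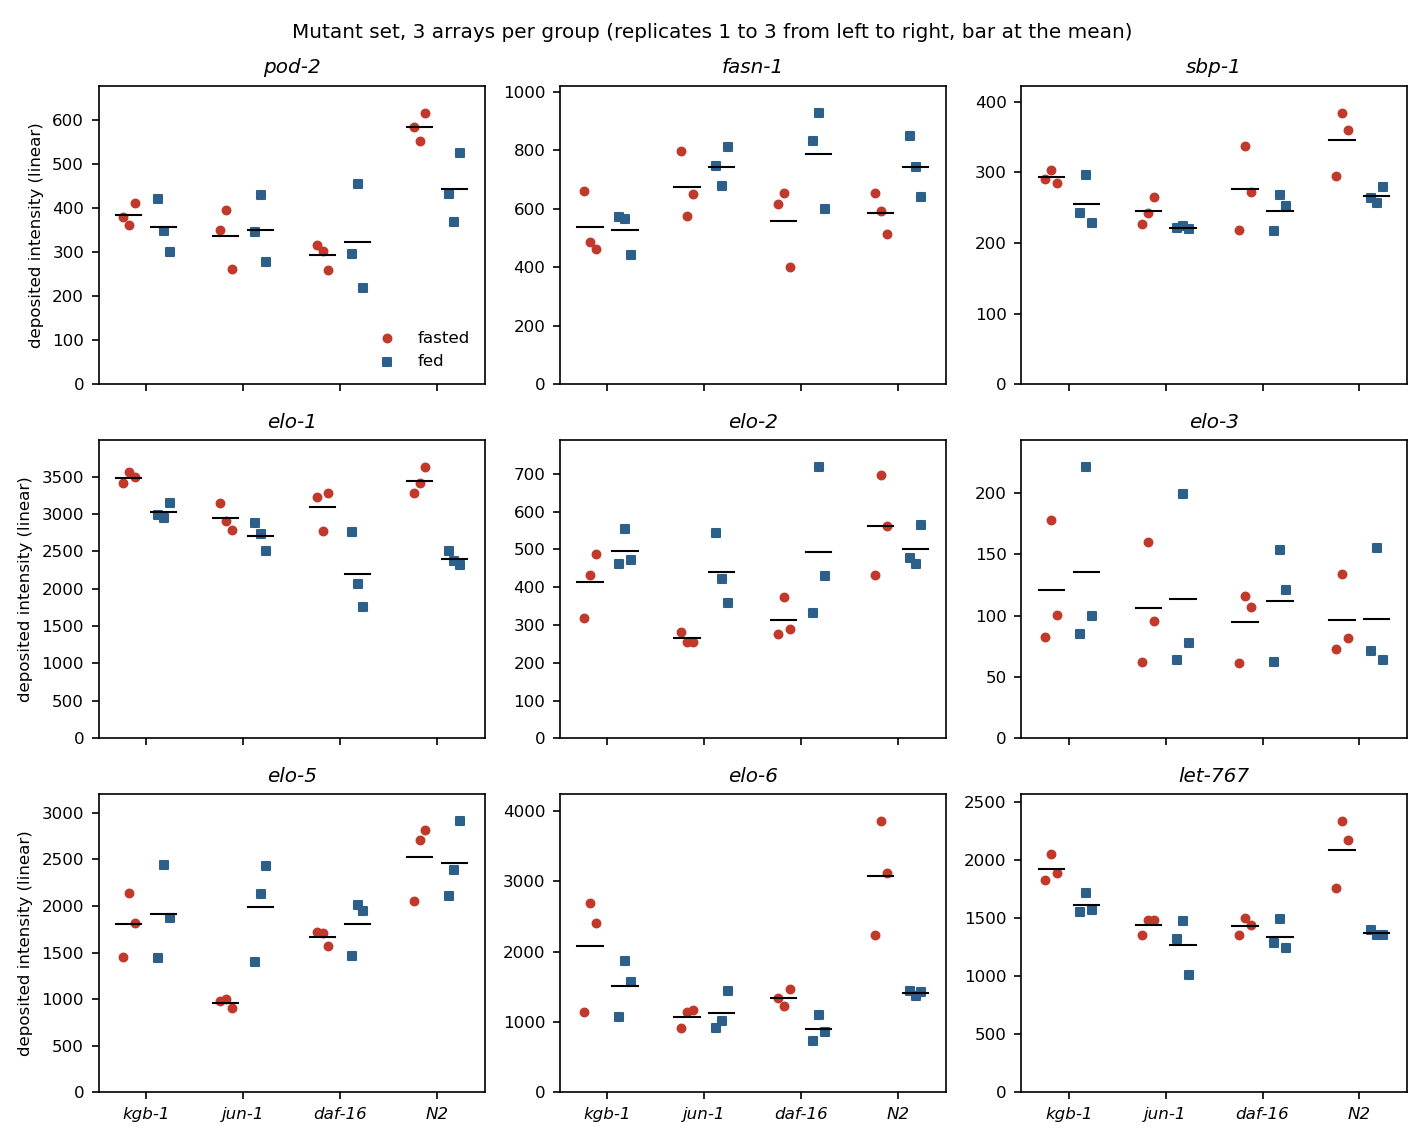
Deposited linear intensity of each of the 9 genes in the mutant set (vertical axes, from 0) for kgb-1, jun-1, daf-16 and N2 worms, fasted as red circles and fed as blue squares, 1 point per array with replicates 1 to 3 from left to right and a bar at the mean of 3. The fasted jun-1 arrays of elo-5 (978, 1003 and 905) are the lowest of their panel, and the fasted N2 arrays of elo-6 (2238, 3849 and 3118) include its highest.

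**Figure D4:**
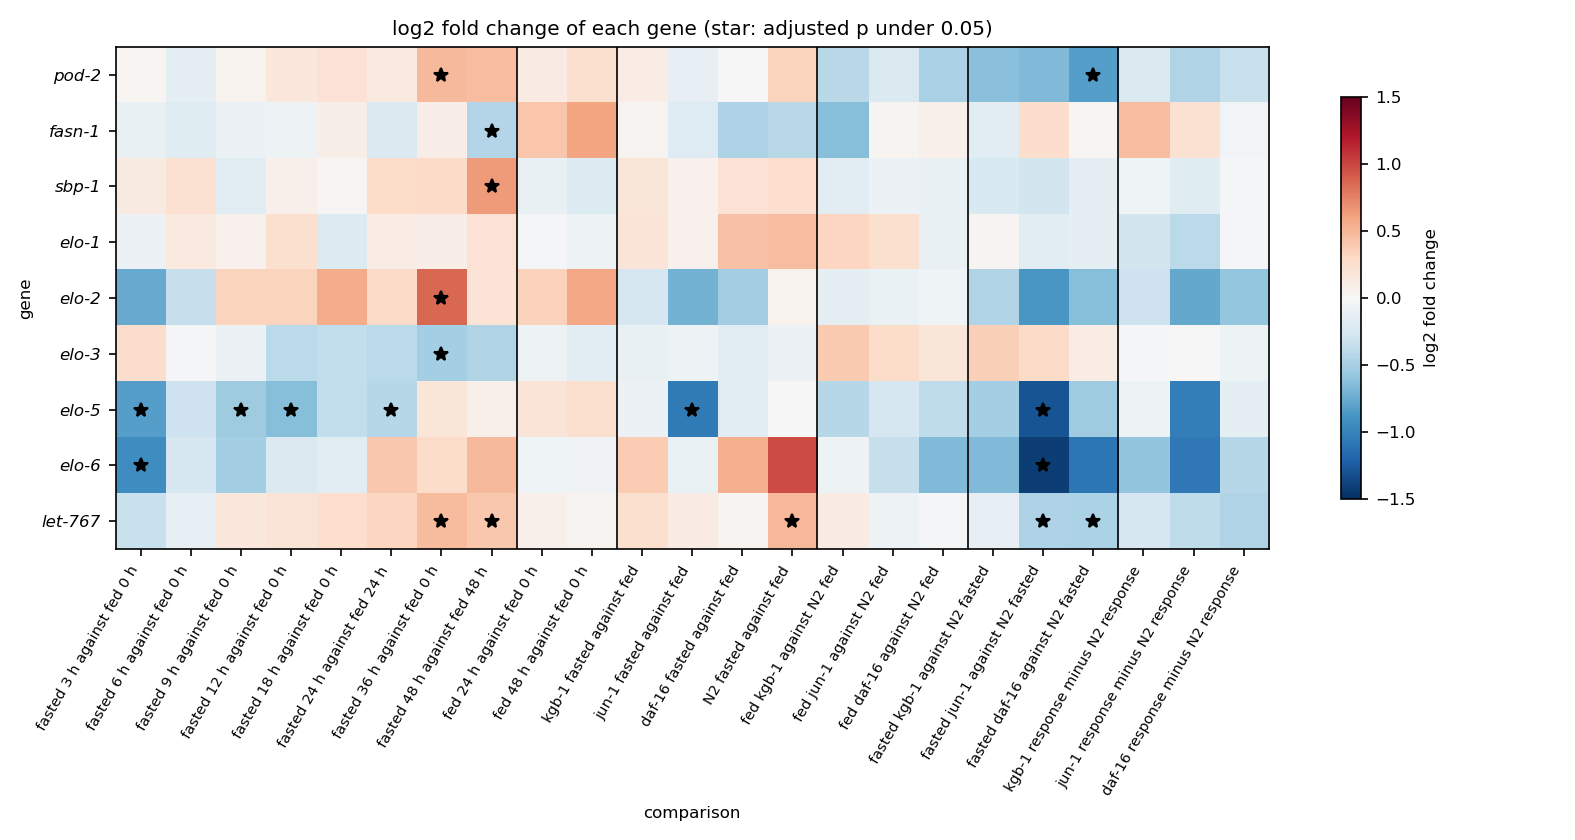
Log2 fold change (colour, blue below 0 and red above 0) of each of the 9 genes (rows) in each comparison (columns), with a star where the adjusted p was under 0.05. The 12 stars of the fasting time course (first 8 columns) include elo-5 at 3, 9, 12 and 24 h and let-767 at 36 and 48 h, and the last 3 columns, the interactions, hold none.

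Genes linked to the branched starters, in their supply or their further breakdown, were also examined. Of 7 such genes, acs-1, an acyl-CoA synthetase needed for branched-chain fatty acids, and bcat-1, the branched-chain aminotransferase, were called lower at 3 h of fasting, where 0.674% of all probe sets were (named after their values were seen). The acs-1 level averaged 439 in worms fasted for 3 h, against 1330 in fed worms at 0 h (-1.58 ± 0.17, adjusted p = 6.99e-05), and bcat-1 averaged 569, against 1146 (-0.99 ± 0.18, adjusted p = 0.00684, limma). At 48 h 3 of 7 were called lower, against 14.1% of all probe sets, and none higher, with a list median of -0.36 against -0.02 over all probe sets. The acs-1 level then averaged 390 in fasted worms, against 1706 in fed worms (-2.11 ± 0.17, adjusted p = 2.53e-07, limma). Fasted N2 worms of the mutant set averaged 311, against 1618 in fed ones (-2.46 ± 0.22, adjusted p = 3.3e-07, limma). In the same comparisons bcat-1 was also lower (-0.84 ± 0.18 at 48 h and -1.34 ± 0.23 in the mutant set, adjusted p = 0.00172 and 0.000896, limma). The other called gene at 48 h was ivd-1 (-0.44 ± 0.11, adjusted p = 0.00714, limma). It encodes isovaleryl-CoA dehydrogenase, which uses up the starter isovaleryl-CoA and does not supply it.

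Of 5 measured genes for other elongases and steps of the elongation cycle, 0 were called at 48 h or in N2 of the mutant set, and 0 had an unadjusted p under 0.05 (limma). Of all probe sets 30.1% and 5.57% were called there. The median of that list was -0.04 at 48 h, and its hpo-8 gene, the worm's hydroxyacyl-CoA dehydratase of the cycle, averaged 1689 in fasted worms, against 1469 in fed worms (0.17 ± 0.11, adjusted p = 0.29, limma). Of 11 genes that supply acetyl-CoA, malonyl-CoA or NADPH, 2 were called higher and 2 lower at 48 h (median -0.28), a share near that of all probe sets (30.1%). The higher ones were aco-1, the cytosolic aconitase (1.36 ± 0.16, adjusted p = 1.63e-05), and cts-1, citrate synthase (0.42 ± 0.13, adjusted p = 0.0269). The lower ones were acly-2, an ATP citrate lyase (-0.50 ± 0.13, adjusted p = 0.00836), and bpl-1, the biotin ligase that charges carboxylases (-0.60 ± 0.14, adjusted p = 0.00293, limma). In N2 of the mutant set aco-1 was again higher (0.80 ± 0.21, adjusted p = 0.0214), with acs-19, an acetyl-CoA synthetase (0.57 ± 0.15, adjusted p = 0.0202, limma), where 3.4% of all probe sets were called higher.

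Of 12 regulators of SBP-1 and of fatty acid genes, 4 were called higher and 1 lower at 48 h (median -0.07), against 16% and 14.1% of all probe sets. Among them were aak-2, an AMP-activated kinase subunit (1.08 ± 0.17, adjusted p = 0.000189), and pcyt-1 and pmt-1, enzymes of phosphatidylcholine synthesis (1.24 ± 0.25 and 1.18 ± 0.25, adjusted p = 0.00115 and 0.00163). The lower one was the nuclear receptor nhr-13 (-0.42 ± 0.14, adjusted p = 0.026, limma). In N2 of the mutant set aak-2 (0.88 ± 0.19, adjusted p = 0.00606) and pcyt-1 (1.02 ± 0.23, adjusted p = 0.0106, limma) were called higher, against 3.4% of all probe sets.

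Of the 7 fatty acid desaturases, fat-7, a stearoyl-CoA desaturase, was the only one called at 48 h, where 30.1% of all probe sets were called. It averaged 138 in fasted worms, against 834 in fed worms (-2.69 ± 0.41, adjusted p = 0.000131, limma). In N2 of the mutant set fat-7 was lower (-0.78 ± 0.20, adjusted p = 0.0216) and fat-2 higher (0.45 ± 0.12, adjusted p = 0.0243, limma), where 5.57% of all probe sets were called. In fasted jun-1 against fasted N2 worms 4 of the 7 were called lower, against 2.91% of all probe sets, with a list median of -0.65 against 0.05 over all probe sets. They were fat-5 (580 against 2510), fat-6 (1309 against 3388), fat-2 and fat-7, named here after their values were seen. Of 7 measured genes of triacylglycerol synthesis and lipid droplets, 1 was called higher and 1 lower at 48 h, a share near that of all probe sets (30.1%). The lower one was dgat-2, a diacylglycerol acyltransferase (-1.502 ± 0.22, adjusted p = 9.92e-05, limma). It was also the only one called in N2 of the mutant set (-1.26 ± 0.29, adjusted p = 0.00996, limma), where 5.57% of probe sets were called. In the same list acl-5, an acyltransferase of the first step, was higher at 48 h (0.62 ± 0.14, adjusted p = 0.00261, limma).

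Among the 9 genes, elo-2 and let-767 had the most alike course over the 22 time course arrays (r = 0.92), followed by elo-6 and let-767 (r = 0.80). Over the 24 mutant set arrays these pairs had r = 0.33 and 0.77. For elo-5 with elo-6, r was 0.69 over the time course arrays, against 0.57 over those of the mutant set. Of 7687 other genes with a mean intensity of at least 100, those most like let-767 in the time course were tent-5 (r = 0.95), ech-7 (0.94) and cytb-5.1 (0.92), with r of -0.15, 0.30 and 0.81 in the mutant set. Those most like elo-5 were pmp-5 (r = 0.82), mct-3 (0.80) and plpp-1.2 (0.80, or 0.73 in the mutant set), and those most like elo-6 were fbxa-59 (0.82), tre-3 (0.81) and Y15E3A.4 (0.80). The genes most like elo-2 were hsp-43 (r = 0.91), tent-5 (0.91) and F20G2.2 (0.90). For fasn-1 they were C18H9.6 (r = 0.88), oat-1 (0.85) and ttr-18 (0.85), and the last 2 were also alike in the mutant set (0.77 and 0.78). For pod-2, sbp-1, elo-1 and elo-3 the closest were Y18D10A.23 (r = 0.83), ketn-1 (0.82), ztf-7 (0.84) and Y23H5A.2 (0.90). The arrays share their time points, so these values describe likeness over fasting and age together.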

How the data were processed

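Total RNA of whole worms was labelled from 100 ng with the Affymetrix 2-cycle assay, per the labels' protocols. The authors deposited linear intensity values made with PLIER, per the submitters' processing notes, whose version and normalization are not given in the sources used here. The smallest value was 16.0003, and whether an offset had been added was not tested. Of 22625 probe sets, 77 controls were left out. Genes were named from the platform annotation where it gave 1 symbol (20766 probe sets), and 5 of the 9 probe sets carry the suffix _s_at, the maker's mark for probes that can match several transcripts. Sequences were not used here.

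Here, 16 was added, log2 taken and the arrays of each set quantile normalized, since array medians differed by 0.393 and 0.412 (log2), over the limit of 0.2. Each set was fitted in limma 3.58.1 (R 4.3.3) with 1 coefficient per group, a trended prior and two-sided tests. The 24 and 48 h fasts were set against fed worms of equal age, all other fasts against the 0 h fed worms. The fit was tested on simulated data.

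The study's 2 and 3 independent experiments gave the replicates. Same-numbered arrays deviated together in the mutant set (r from 0.157 to 0.739 in all 10 comparisons, 24 of 24 arrays closest to their own number), so its numbers were taken as pairs, and a fit blocked on these numbers is given wherever it changes a call. Those of the time course did so too (r from 0.29 to 0.62 in 11 comparisons, 22 of 22 arrays), with only 2 pairs per comparison. With 2 arrays per group, the deviations from the group mean are mirror images, so the 22 arrays are not separate results. Blocked results of the time course are given for elo-2, elo-6 and pod-2 above and as counts in the last section. The 9 genes and all lists were chosen with earlier results of these data known. All 9 were named, with up to 3 called genes in each direction per list at 48 h and in N2 of the mutant set, and the 3 genes most alike to each.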

Additional observations from a re-analysis of the deposited data

Results flagged for a closer look

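The fasting response of elo-5 in jun-1 worms minus that in N2 worms was -1.04 ± 0.31 on the log2 scale. It stands out as a difference between genotypes under the same contrast: it passed the test of the difference with the replicate number as a block (adjusted p = 0.0255) and missed it without (adjusted p = 0.405, limma). The jun-1 pairs differed by -0.59, -1.06 and -1.502 between fasted and fed worms, and the N2 pairs by -0.06, 0.12 and -0.09. The summed intestine markers were 5433 to 6593 in fasted jun-1 worms, against 13820 to 15570 in fed jun-1 worms, and 9612 to 11750 in fasted N2 worms, against 20220 to 22760 in fed ones, and their part in the difference was not tested.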

How the results depend on the processing

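All 25 called values kept their sign under the 9 alternatives and with each array left out. Of 164 values never called, 31 changed sign under an alternative, none larger than 0.252, and elo-1 at 18 h, -0.21, ran from -0.445 (without fasted 18 h replicate 1) to 0.0366 (without fasted 18 h replicate 2). In the fit of all 46 arrays 0 genes were called at 3, 9, 12 and 24 h, 2 at 36 h, 3 in N2, 1 in daf-16, 1 in fed kgb-1 and 5 in fasted jun-1 worms. The replicate block gave 3 at 3 h (adding elo-2, adjusted p = 0.0355), 2 at 9 h, 2 at 18 h, 4 at 24 h, 6 at 48 h (adding elo-6, pod-2 and elo-3, adjusted p 0.00666, 0.0397 and 0.021) and 1 in fed worms at 48 h. In the time course 22 of 22 arrays were closest to their own number, with deviations correlated at 0.29 to 0.62. The 2 arrays of a group deviate there as mirror images, so these are not 22 separate results. The numbers link only 2 arrays per comparison there. In the mutant set, where they pair the samples, the block gave 3 in N2, 2 in jun-1, 1 in daf-16, 1 for the jun-1 interaction (elo-5), 1 in fed kgb-1, 5 in fasted jun-1 and 4 in fasted daf-16 worms, and changed no other call. Median centring gave 2 at 9 h, 2 at 12 h, 3 at 18 h, 2 at 24 h, 2 at 36 h and 2 in N2; unscaled values gave 5 at 48 h, 3 in N2 and 1 in daf-16. Of all probe sets called at 48 h, 3617 were higher and 3178 lower, 5027 and 2173 unscaled, and 2894 and 9050 when centred. Brighter probe sets alone gave 2 at 18 h, 2 at 24 h, 6 at 48 h, 1 in fed worms at 48 h and 3 in N2; no intensity trend gave 2 at 24 h and 1 in fed worms at 48 h. The cause was not tested. With 1 array left out, the counts ran from 0 to 1 (3, 12 and 18 h), 0 to 0 (9 h), 0 to 2 (24 h), 1 to 3 (36 h), 0 to 4 (48 h), 0 to 1 in N2, jun-1 and daf-16, 1 to 4 in fasted jun-1, 0 to 2 in fasted daf-16 worms and 5 to 6 between 48 and 3 h of fasting. A lone array left in a group was assumed to vary like the other groups.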
